A study of Rattus norvegicus with 59 samples.

Results

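The messenger RNA of 9 transcription factors that define hepatocytes was examined in rat liver after a single exposure to cadmium (Cd) or hexavalent chromium (Cr). The genes are Hnf4a, Foxa1, Foxa2, Foxa3, Cebpa, Onecut1, Nr1i2, Nr1i3 and Rxra. A probe set, the group of short probes by which the array reads a transcript, was a member if the annotation gave it 1 of these symbols and no other, which found 16 of the 31042 probe sets that are not array controls. The 9 genes stand among 14217 with such a probe set. Each gene was read on its brightest probe set, and all 9 of these passed the filter on low signal for both metals, as did 15 of the 16 member probe sets. The dimmest of the 5 probe sets of Cebpa did not pass and was not tested.

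Male Sprague-Dawley rats received a single intraperitoneal injection, and whole liver was taken 1, 3 or 7 days later for 59 Affymetrix rat genome arrays. The Cd groups received CdCl2 at 1.25 mg/kg and the Cr groups Na2Cr2O7 at 20 mg/kg per the labels, while the methods also name a lower Cr dose for the arrays. Control rats received sterile saline, and each metal had its own control livers on each day. There were 5 arrays in every group except Cd exposed day 1, which had 4, because the study left out a liver that lacked Cd accumulation and clustered with controls. All rats were of 1 strain and sex, and each array held RNA from all cell types of the organ, so fewer cells of a type and less RNA per cell cannot be told apart.

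Hepatocyte identity is held by a small network of transcription factors that bind each other's genes as well as those for plasma proteins, bile acid enzymes and detoxification. HNF4A is a nuclear receptor at the centre of the network, the FOXA proteins open chromatin as pioneer factors, C/EBPα drives metabolic genes of the mature cell, and ONECUT1, also called HNF6, is a cut-domain factor. NR1I2 (PXR) and NR1I3 (CAR) sense foreign chemicals and bind DNA as heterodimers with RXRA.

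Promoter sequence is shown for Foxa2, Foxa3, Cebpa and Nr1i3, whose differences between groups are described below, and for Hnf4a as the centre of the network, so that the letters upstream of each can be read beside the values. The sequences are the 250 bases before the start site in RefSeq, build GRCr8, and 7 of the 9 members have an entry; Foxa1 and Onecut1 do not. Capitals mark matches, on either strand and with overlaps kept, to letters bound by known factors. General promoter letters were TATAAA for the TATA box and CCAAT for nuclear factor Y, with GGGCGG for Sp1. Letters of liver factors were TGTTTNC for the FOXA proteins and GTTAAT for a part of the HNF1 site, with ATTGAT for ONECUT1. The longer ones were TTNNGCAA for C/EBP proteins, TTCNNNGAA for STAT5 and CAAAGTCCA for HNF4A. Hnf4a has 2 start sites 35616 bases apart, and the downstream one is printed. The windows lie at chr3:155927509-155927758 on the minus strand for Foxa2, chr1:87799486-87799735 on the minus strand for Foxa3, chr1:96896334-96896583 on the plus strand for Cebpa, chr13:86165170-86165419 on the plus strand for Nr1i3 and chr3:172641586-172641835 on the plus strand for Hnf4a.
Foxa2: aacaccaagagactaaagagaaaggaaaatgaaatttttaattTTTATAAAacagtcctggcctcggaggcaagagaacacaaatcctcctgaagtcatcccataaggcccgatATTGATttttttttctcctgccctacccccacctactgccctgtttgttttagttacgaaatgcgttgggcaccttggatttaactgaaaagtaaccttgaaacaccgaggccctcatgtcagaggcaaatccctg
Foxa3: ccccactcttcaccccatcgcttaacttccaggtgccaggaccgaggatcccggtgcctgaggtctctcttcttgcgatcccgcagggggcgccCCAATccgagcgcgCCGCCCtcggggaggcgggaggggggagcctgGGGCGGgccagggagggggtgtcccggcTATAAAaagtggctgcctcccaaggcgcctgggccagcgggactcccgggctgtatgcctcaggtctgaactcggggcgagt
Cebpa: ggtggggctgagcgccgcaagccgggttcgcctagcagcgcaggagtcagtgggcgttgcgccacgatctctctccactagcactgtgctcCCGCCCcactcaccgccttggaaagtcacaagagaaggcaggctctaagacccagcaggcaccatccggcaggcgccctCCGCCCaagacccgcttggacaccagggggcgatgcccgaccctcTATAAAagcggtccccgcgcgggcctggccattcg
Nr1i3: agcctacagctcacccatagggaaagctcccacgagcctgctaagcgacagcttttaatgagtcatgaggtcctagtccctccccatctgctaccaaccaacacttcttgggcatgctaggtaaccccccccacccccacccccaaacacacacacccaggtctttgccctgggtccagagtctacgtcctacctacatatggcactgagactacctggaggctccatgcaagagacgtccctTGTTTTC
Hnf4a: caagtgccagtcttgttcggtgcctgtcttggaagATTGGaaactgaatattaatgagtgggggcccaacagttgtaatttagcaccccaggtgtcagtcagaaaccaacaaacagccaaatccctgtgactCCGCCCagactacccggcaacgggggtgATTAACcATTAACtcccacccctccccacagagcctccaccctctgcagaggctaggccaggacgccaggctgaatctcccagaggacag

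In the Foxa2 window 2 TATAAA matches overlap on opposite strands at -207 and -205 relative to the start, and an ATTGAT match lies at -136. Foxa3 and Cebpa each have a TATAAA match, at -82 and -35, and 2 GGGCGG matches, and Foxa3 also has CCAAT at -156. Nr1i3 has 1 match, TGTTTTC at -7, which ends at the last base before the start. The downstream Hnf4a window has 2 GTTAAT matches, both on the opposite strand, at -90 and -83. Of 33469 promoter windows of this length, 12.9% held TATAAA, 34.0% CCAAT, 30.5% GGGCGG, 18.3% TGTTTNC, 6.45% GTTAAT and 7.1% ATTGAT. The letters TTNNGCAA were in 9.22% and CAAAGTCCA in 0.338%, and neither is in a member window printed here. The matches are descriptions of these windows, and none was tied to the expression values by a test.

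In control livers the members differed widely in how much they varied between animals. Signals are log2 values, and their height cannot be compared between probe sets. Onecut1 ranged from 5.97 to 11.04 over the 30 control arrays, a 33.5-fold range, and its pooled within-group SD of 1.38 was exceeded by only 2 of 15176 probe sets. Foxa2, Nr1i3 and Foxa3 followed with pooled SDs of 0.417, 0.387 and 0.363, larger than 97.05%, 96.35% and 95.64% of all probe sets. Cebpa had 0.219, Rxra 0.180, Foxa1 0.179, Hnf4a 0.137 and Nr1i2 0.134, against a median of 0.147. For Hnf4a and Nr1i2 the spread among animals of a group was therefore slightly below that of the typical probe set.

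**Figure D1:**
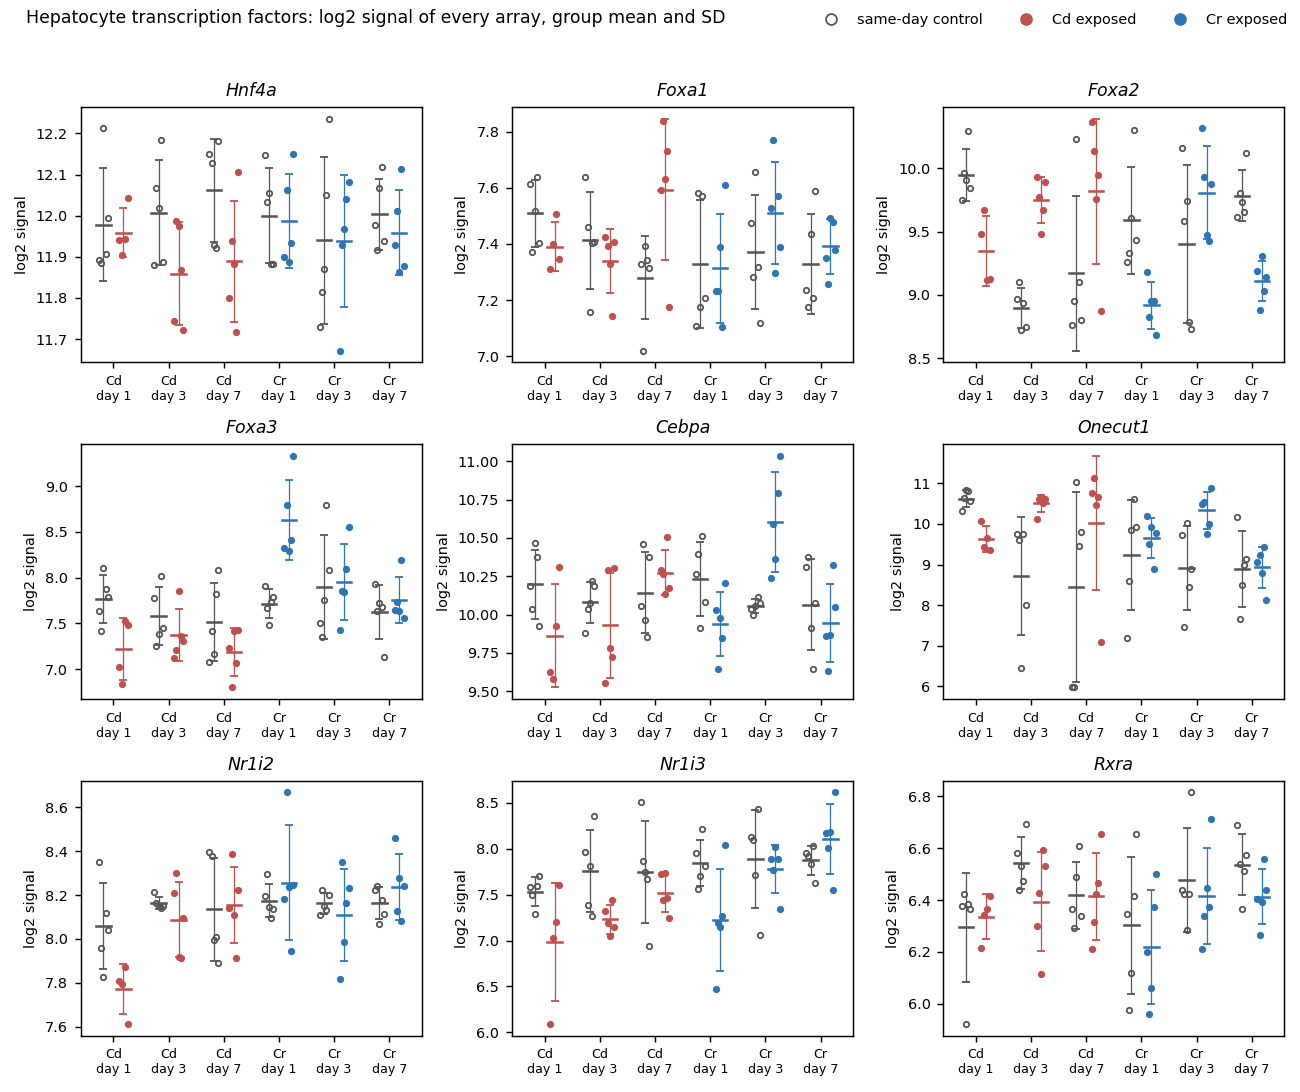
Log2 signal (y axis) of the 9 transcription factors on every array, by metal and day (x axis), with open points for same-day controls, filled points for exposed livers, a bar for the group mean and whiskers for the SD. Foxa3 stood above its controls on all 5 Cr day 1 arrays, Foxa2 was separated from its controls on Cd days 1 and 3 and Cr days 1 and 7, and Onecut1 fell to 5.97 in 2 control livers of Cd day 7.

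Hepatocyte markers were present in all livers, with all 7 on the array tested and a summed signal of 16.69 to 16.90 (log2) over all Cd and Cr groups. On Cd day 1 their sum was 16.69 to 16.79 against 16.82 to 16.89 in controls without overlap, and 4 of 7 were called lower, which were Ass1, Cps1, Ahsg and Ttr at -1.12, -0.31, -0.23 and -0.18. On Cr day 1 the sum was 16.81 to 16.85 against 16.85 to 16.88, with Ass1 (-0.74) and Cps1 (-0.32) lower and Apoa1 (0.24) higher. Markers of other cell types also differed, and none of those tested was at 0. All 7 Kupffer cell markers fell on Cd day 1, by a median of 3.23, with the summed level at 8.26 to 10.61 against 11.61 to 12.04 in controls. After Cr on day 1 the Kupffer sum was 11.8 to 12.27 against 11.74 to 11.97. The summed neutrophil level was 12.34 to 13.99 on Cd day 1 against 7.49 to 10.44, with 3 of 3 tested markers higher (S100a8, S100a9 and Lcn2). On Cr day 1 it was 8.21 to 10.9 against 6.78 to 7.38, with 2 of 2 tested markers higher (S100a9 and Lcn2). Of the 5 neutrophil markers on the array the others did not pass the filter. S100a8 was tested after Cd only and averaged 4.90 over all arrays, below the lowest signal of 5.38 at which the Cd filter ended. Its calls are therefore not independent of the filter. The paper describes Lcn2 as an acute-phase protein and S100a8 and S100a9 as inducible in other cells, so these genes do not measure neutrophils alone. On Cd day 1, 3 of 6 endothelial and 1 of 7 stellate markers were higher and 1 of 2 cholangiocyte markers was lower. On Cr day 1, 2 of 2 cholangiocyte and 2 of 6 endothelial markers were higher and 1 of 6 stellate markers was lower. Only 2 of the 5 cholangiocyte markers on the array passed the filter. The part of these shifts in the day 1 values of the members was not tested.

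On Cd day 1, 8 of the 9 members had lower means than same-day controls, but 0 passed an adjusted p of 0.05 or less (limma, Benjamini-Hochberg over 15521 probe sets), where 24% of all probe sets were called. The plain linear model also called 0, and 5 members had an unadjusted p under 0.05. The median log2 fold change of the members was -0.34, against 0.01 over all probe sets. On Cr day 1, 3 of 9 members were called, against 46.2% of all probe sets: Foxa3 was higher (28.2% of probe sets were), and Foxa2 and Nr1i3 were lower (18% were). Their median on that day was -0.02, against 0.04. On Cd days 3 and 7 and on Cr days 3 and 7, 0 members were called by limma or by the plain model, where 1.42%, 0.0258%, 0% and 0.251% of probe sets were. The members with an unadjusted p under 0.05 numbered 3, 3, 2 and 1. The share of all probe sets under that unadjusted p is not given here. These counts, and the 5 on Cd day 1, therefore have no background beside them. With the fold threshold of 1.8 that the study used besides the adjusted p, 1 member remained on Cr day 1, Foxa3, where 4.9% of probe sets passed. Complete separation of exposed from control arrays was seen for Foxa2 and Onecut1 below controls on Cd day 1 (8.2% of probe sets) and above them on Cd day 3 (2.56%), for Foxa3 above (12.9%) and Foxa2 below (8.03%) on Cr day 1, for Cebpa above on Cr day 3 (1.64%) and for Foxa2 below on Cr day 7 (1.33%).

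**Figure D2:**
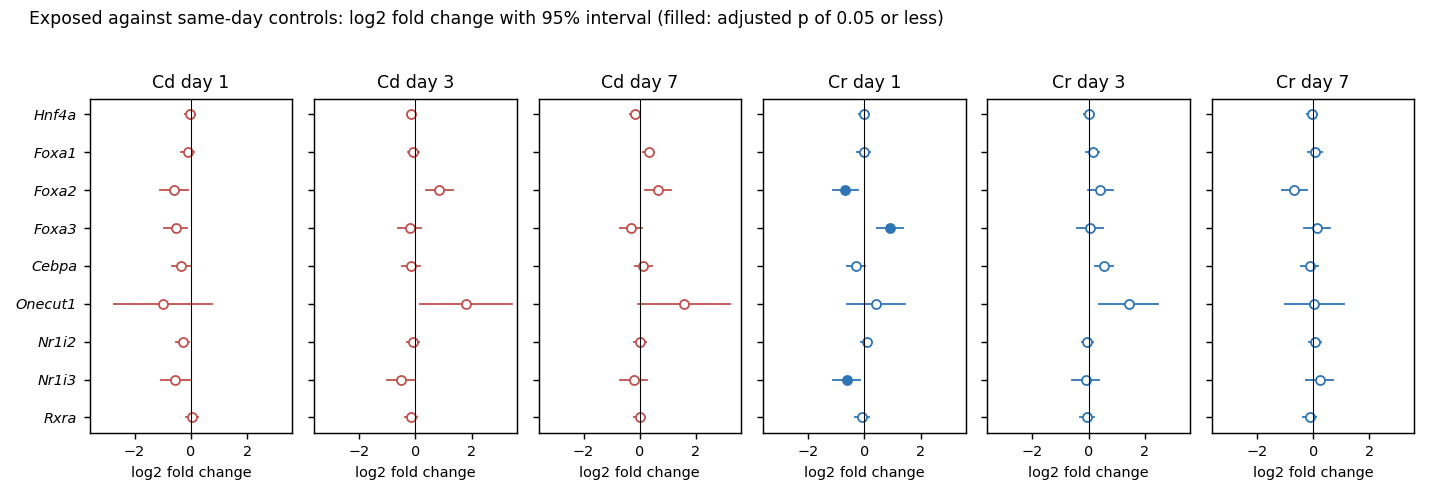
Log2 fold change of each factor (x axis, exposed minus same-day control) with its 95% interval from limma, for the 6 comparisons, filled where the adjusted p was 0.05 or less. The 3 filled points are Foxa2, Foxa3 and Nr1i3 on Cr day 1, and the intervals of Onecut1 were the widest in every panel.

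Hnf4a, which encodes the nuclear receptor at the centre of the network, was not called in any of the 6 comparisons, and its exposed and control arrays overlapped in each. On Cd day 1 its controls read 11.89, 11.88, 12.21, 11.91 and 11.99 and the exposed livers 11.94, 11.91, 11.94 and 12.04. On Cr day 1 the controls read 12.15, 12.03, 12.05, 11.88 and 11.88 and the exposed livers 11.90, 12.06, 11.89, 11.93 and 12.15. The arrays overlapped on both days, and the 95% intervals of the log2 fold change were -0.20 to 0.16 and -0.19 to 0.17. They bound the change on the brightest probe set only. The largest difference on that probe set came on Cd day 7, with a log2 fold change of -0.17 ± 0.08 (SE, limma, adjusted p = 0.59). The exposed livers then read 11.80, 11.94, 11.88, 11.72 and 12.11 against 12.15, 12.13, 11.93, 11.92 and 12.18 in controls, so that 3 of 5 lay below every control. On Cd day 3 the exposed livers read 11.74, 11.99, 11.98, 11.87 and 11.72, and 3 of 5 again lay below the lowest control, at 11.88. The other 2 Hnf4a probe sets were not called in any comparison either and followed the first only loosely (Pearson r over 59 arrays of 0.389 and 0.146). The probe set with r of 0.146 had wider differences after Cd. It averaged 6.42 in exposed livers against 6.72 in controls on Cd day 1, and 6.36 against 6.74 on Cd day 3. After Cr its exposed mean was above that of controls on each day.

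Foxa3, a pioneer factor also known as HNF3 gamma, showed the largest called difference from controls. After Cr on day 1 the exposed livers read 8.32, 8.79, 8.29, 8.41 and 9.34 and their controls 7.91, 7.66, 7.48, 7.73 and 7.79. Every exposed array lay above every control, with a log2 fold change of 0.92 ± 0.23 (SE; 1.89-fold; limma, adjusted p = 0.0016). The call held under all 18 alternatives, with values from 0.74 to 1.00.

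On days 3 and 7 after Cr the Foxa3 difference was 0.06 and 0.14, and the arrays overlapped. Day 3 controls read 7.50, 7.35, 7.76, 8.79 and 8.09, so that 1 control liver lay within the range of the exposed livers of day 1. The day 1 effect exceeded that of day 3 by 0.86 ± 0.32 (limma, adjusted p = 0.048), where 15.6% of probe sets were called in that direction, but this call was lost in 17 alternatives and kept in 8. Without Cr control day 3 replicate 4, the high control, the difference was 0.64 (adjusted p = 0.11).

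After Cd on day 1 Foxa3 lay on the other side of controls, with exposed values of 7.02, 6.84, 7.53 and 7.49 and control values of 7.63, 7.41, 8.10, 7.88 and 7.79. The ranges overlapped, since 7.53 and 7.49 lay above the lowest control. The log2 fold change was -0.55 ± 0.20 (limma, adjusted p = 0.051), just outside the threshold, and 6 alternatives brought it inside, among them the fits without Cd exposed day 1 replicate 4 (adjusted p = 0.040), without replicate 5 (0.037) and without Cd control day 1 replicate 2 (0.032). The metals differed on day 1 by -1.46 ± 0.31 (Cd effect minus Cr effect, limma, adjusted p = 0.00055; 15.2% of probe sets called in that direction), and this difference was called under all 24 alternatives. Foxa3 was the only 1 of the 9 members called in that contrast.

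Foxa2, the pioneer factor also known as HNF3 beta, was separated from same-day controls in 4 of 6 comparisons, not always to the same side. On Cd day 1 the controls read 9.75, 9.96, 9.90, 10.29 and 9.84 and the exposed livers 9.48, 9.67, 9.12 and 9.12. All 4 exposed livers were below all controls, and the log2 fold change was -0.60 ± 0.24 (limma, adjusted p = 0.075). A fit of the day 1 arrays alone gave an adjusted p of 0.016.

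On Cd day 3 the exposed livers, at 9.93, 9.77, 9.48, 9.67 and 9.89, were all above the controls, at 8.97, 9.10, 8.73, 8.94 and 8.75. The difference was 0.85 ± 0.23 (limma, adjusted p = 0.059), and it passed in the fit of both metals together (0.033) and in that of the day alone (0.0029). On that day the 3 neutrophil markers that passed the filter, of 5 on the array, were higher. The summed neutrophil level was 7.46 to 13.67 against 6.65 to 7.85, and that of stellate markers 12.33 to 13.37 against 12.15 to 12.31. The part of these markers in the Foxa2 difference was not tested. On Cd day 7 the arrays overlapped, with controls at 8.76, 8.95, 10.23, 9.11 and 8.80, exposed livers at 10.36, 10.13, 9.76, 9.95 and 8.87 and a difference of 0.65 ± 0.23 (adjusted p = 0.49).

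The control means of the Cd series lay further apart between days than the exposed ones. Mean Foxa2 in controls was 9.95, 8.90 and 9.17 on days 1, 3 and 7, whereas the exposed means were 9.35, 9.75 and 9.82. Controls of day 1 exceeded those of day 3 by 1.05 ± 0.23 (limma, adjusted p = 0.022; 0.702% of probe sets called in that direction), a contrast added after the values were seen. This call was lost without Cd control day 1 replicate 3 (0.054) or 4 (0.076) and without Cd control day 3 replicate 3 (0.073) or 5 (0.057). The Cd effect on day 1 differed from that on day 3 by -1.45 ± 0.33 (limma, adjusted p = 0.0044; 5.99% of probe sets called in that direction) and from that on day 7 by -1.25 ± 0.33 (0.015; 4.8%). Against the 15 pooled Cd controls, as the study compared them, the day 1 value was 0.01 and these 2 differences shrank to -0.40 (adjusted p = 0.43) and -0.47 (0.33).

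After Cr on day 1 Foxa2 read 9.18, 8.82, 8.95, 8.95 and 8.68 in exposed livers and 9.26, 9.33, 9.61, 10.30 and 9.44 in controls. No exposed array reached the controls, and the log2 fold change was -0.67 ± 0.22 (limma, adjusted p = 0.013). Without Cr control day 1 replicate 4, the highest control, it was -0.49 (adjusted p = 0.060), while the other 17 alternatives left it called.

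On Cr day 3 the Foxa2 arrays overlapped, with 10.32, 9.93, 9.48, 9.42 and 9.88 in exposed livers, 10.16, 9.58, 9.74, 8.79 and 8.73 in controls and a difference of 0.41 ± 0.22. The effect of day 1 was lower than that of day 3 by a contrast of -1.07 ± 0.31 (limma, adjusted p = 0.011; 9.95% of probe sets called in that direction), which held under all 25 alternatives. On Cr day 7 the exposed livers, at 9.19, 8.88, 9.31, 9.03 and 9.14, were again all below the controls, at 9.61, 9.81, 9.73, 9.65 and 10.12. The difference of -0.67 ± 0.22 had an adjusted p of 0.19 in limma and passed only in the fit of the day alone (0.022). Between the metals Foxa2 differed on day 7 by 1.32 ± 0.33 (Cd effect minus Cr effect, limma, adjusted p = 0.033; 0.303% of probe sets called in that direction), a call lost in 13 alternatives and kept in 12, and with pooled controls it was 0.96 (adjusted p = 0.26). Among the fits that lost it were 6 that left out 1 Cd array, with the highest adjusted p, 0.10, without Cd exposed day 7 replicate 2.

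Foxa1, the pioneer factor also known as HNF3 alpha, was not called in any comparison. Its widest difference came on Cd day 7, where controls read 7.33, 7.02, 7.39, 7.34 and 7.31 and exposed livers 7.59, 7.84, 7.63, 7.73 and 7.18. Exposed replicate 5 lay among the controls and the other 4 above them, for a log2 fold change of 0.31 ± 0.10 (limma, unadjusted p = 0.0042, adjusted p = 0.41). On Cr day 1 its difference was -0.02 ± 0.11.

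Onecut1 had the largest fold changes of all members on each day after Cd, and none was called. On Cd day 1 the controls read 10.31, 10.63, 10.83, 10.80 and 10.55 and the exposed livers 10.08, 9.44, 9.66 and 9.36. The exposed arrays all lay below the controls, yet the log2 fold change of -0.99 had an SE of 0.85 and a 95% interval of -2.73 to 0.74 (limma, adjusted p = 0.44), because the spread was shared over all 6 Cd groups. Fitted on the day 1 arrays alone the adjusted p was 0.0018, and against pooled Cd controls the value turned to 0.37 without being called.

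On Cd day 3 the exposed livers read 10.13, 10.61, 10.66, 10.52 and 10.62 and were all above controls of 9.75, 9.60, 6.46, 9.76 and 8.004. The difference was 1.79 ± 0.80 (limma, adjusted p = 0.35). On Cd day 7 the controls spanned nearly the whole range of the gene, at 5.97, 5.97, 11.04, 9.44 and 9.81, while exposed livers read 10.77, 11.14, 10.47, 10.65 and 7.09. Low values were thus found in 2 control livers and 1 exposed liver of that day, and the difference of 1.58 ± 0.80 had an adjusted p of 0.60.

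In the Cr series Onecut1 controls of day 1 read 7.19, 8.59, 9.86, 10.61 and 9.93 and exposed livers 10.19, 9.49, 9.92, 8.90 and 9.78. The day 3 controls read 9.73, 7.47, 10.03, 8.44 and 8.89 and the exposed livers 10.49, 10.55, 9.76, 9.9999 and 10.89. Both pairs overlapped, and the larger difference, on day 3, had an SE of 0.51 and an adjusted p of 0.33. On day 7 the controls at 10.18, 7.65, 8.49, 8.99 and 9.13 also overlapped the exposed livers at 9.05, 9.23, 8.80, 9.44 and 8.11. The second Onecut1 probe set followed the first over all 59 arrays (Pearson r = 0.973), and it read 4.40 and 4.59 in Cd control day 7 replicates 1 and 2, the same livers in which the first read 5.97, and 4.57 in Cd exposed day 7 replicate 5.

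Cebpa, which encodes C/EBPα, had its clearest pattern after Cr. On day 1 the controls read 10.27, 10.40, 9.91, 10.51 and 10.08 and the exposed livers 10.03, 9.65, 9.98, 9.85 and 10.20, with a log2 fold change of -0.29 ± 0.15 (limma, adjusted p = 0.11). On day 3 the controls lay close together at 10.04, 9.998, 10.05, 10.12 and 10.08 and the exposed livers read 10.24, 10.59, 10.36, 10.79 and 11.04. All 5 exposed livers were above all controls on day 3 but not below them on day 1. The day 3 difference was 0.55 ± 0.15 (limma, adjusted p = 0.15, in a comparison in which 0 of the probe sets tested were called), and on day 7 it was -0.12.

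The change of the Cebpa effect between days was called, at -0.84 ± 0.21 (day 1 minus day 3, limma, adjusted p = 0.0047), under all 28 alternatives. The other 3 tested probe sets of the gene gave -1.0, -1.49 and -1.65 with adjusted p values of 0.0027, 0.012 and 0.0077. On day 3 they too were completely separated, with log2 fold changes of 0.53, 1.02 and 1.15. On day 1 the first of these 3 was called lower at -0.47 ± 0.16 (0.021), unlike the probe set that stands for the gene. On the dimmest Cebpa probe set, which was not tested, the day 3 arrays overlapped. The 4 tested probe sets rose and fell together over the arrays (Pearson r from 0.908 to 0.983). On Cr day 3 the summed cholangiocyte markers were 8.84 to 9.26 against 8.36 to 8.78, which was not called and whose part in the Cebpa values was not tested. After Cd the Cebpa differences were -0.34, -0.15 and 0.13 on the 3 days, and day 1 passed only without Cd exposed day 1 replicate 5 (-0.49, adjusted p = 0.029). The Cebpa effects of the 2 metals did not differ by a call on any day. The widest contrast, on day 3, was -0.70 ± 0.22 (Cd effect minus Cr effect, limma, adjusted p = 0.25).

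**Figure D3:**
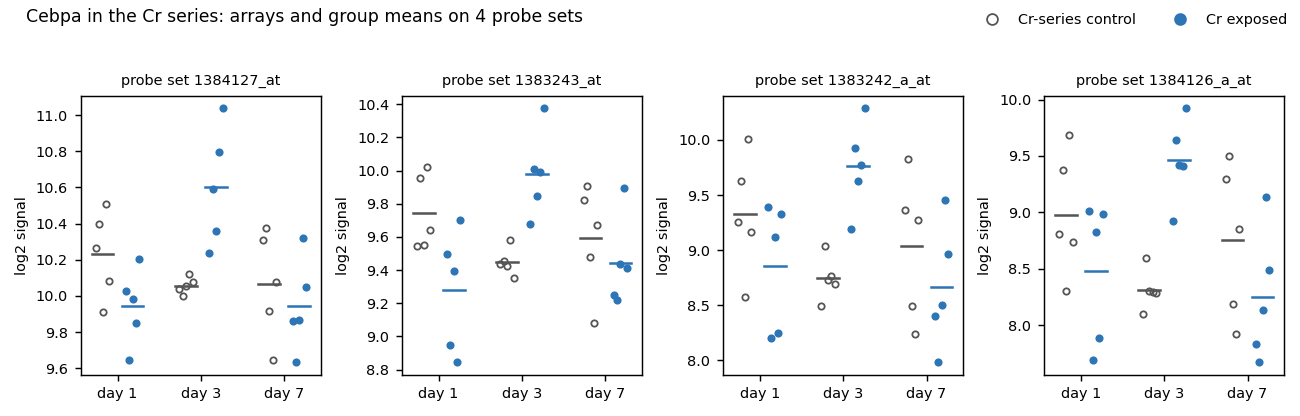
Log2 signal (y axis) of the 4 tested Cebpa probe sets in the Cr series by day (x axis), with open points for control arrays, filled points for exposed arrays and bars for group means. On day 3 all exposed arrays lie above all controls on every one of the 4 probe sets, and on day 1 the exposed means lie below the control means.

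Nr1i3, which encodes CAR, a receptor that moves to the nucleus on exposure to foreign chemicals, was lower after Cr on day 1. Controls read 7.95, 7.56, 7.70, 8.22 and 7.81 and exposed livers 6.47, 7.19, 7.14, 7.27 and 8.04. Of the 5 exposed livers 4 lay below all controls and replicate 5 lay among them, for a log2 fold change of -0.63 ± 0.23 (limma, adjusted p = 0.027). The call was lost without Cr control day 1 replicate 1 (0.052) or 4 (0.075), without Cr exposed day 1 replicate 3 (0.051) and without Cr exposed day 1 replicate 1, the lowest, where the value was -0.44 (0.12), and also in the fit of the day alone (0.058).

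After Cd on day 1 Nr1i3 read 6.09, 7.02, 7.20 and 7.61 in exposed livers and 7.59, 7.49, 7.29, 7.60 and 7.71 in controls. Replicate 1 of the exposed livers was far below the rest, and the difference of -0.55 ± 0.25 had an adjusted p of 0.11. It passed without Cd exposed day 1 replicate 5 (-0.76, adjusted p = 0.031) and against pooled controls (-0.70, 0.011). The 2 metals did not differ by a call on that day (0.07, limma, adjusted p = 0.91), which does not show that they acted alike. On Cd days 3 and 7 the differences were -0.53 and -0.22, and on Cr days 3 and 7 they were -0.11 and 0.23, none of them called.

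Nr1i2, which encodes PXR, the other receptor for foreign chemicals, read 7.81, 7.79, 7.87 and 7.61 in Cd exposed livers on day 1 and 8.35, 7.96, 7.83, 8.12 and 8.04 in controls. The exposed value of 7.87 lay above the lowest control, and the log2 fold change was -0.29 ± 0.11 (limma, adjusted p = 0.059). It passed in 4 alternatives, among them pooled controls (-0.35, adjusted p = 0.0044) and the fit without Cd control day 1 replicate 3 (0.028). After Cr on day 1 the value was 0.08, and the difference between metals was -0.37 ± 0.15 (adjusted p = 0.061). Rxra, the shared partner of both receptors, ranged from 5.92 to 6.82 over the control arrays. Its exposed arrays overlapped same-day controls in every comparison, and its day 1 differences were 0.04 ± 0.10 after Cd and -0.08 ± 0.12 after Cr.

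The genes on which these factors act were counted in lists written from textbook knowledge, against the same day 1 backgrounds of 13.3% higher and 10.7% lower after Cd and 28.2% and 18% after Cr. Of 23 tested HNF4A targets, 2 were higher and 8 lower after Cd (median log2 fold change -0.10), and 1 was higher and 13 lower after Cr (median -0.35, against 0.08 over all genes). Among them Slc10a1, the bile acid uptake transporter, was lower after both metals, by -0.47 and -0.83 (limma, adjusted p = 0.00012 and 2.4e-06). Cyp8b1, which makes cholic acid, was lower by -0.89 (0.027) and -1.55 (0.0024). Pklr, the liver pyruvate kinase, was lower after Cr by -1.50 (4.9e-07) and had -0.82 after Cd (0.091). Cyp7a1, the rate-limiting enzyme of bile acid synthesis, went the other way after Cd, at 0.97 (0.024), and had 0.27 after Cr (0.72).

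For C/EBPα targets the counts were 2 higher and 6 lower of 14 after Cd (median -0.19) and 4 higher and 6 lower after Cr (median -0.31). Those that fell after both metals include the urea cycle enzymes Ass1, with -1.12 (limma, adjusted p = 2.4e-05) after Cd and -0.74 (0.00053) after Cr, and Otc, with -0.71 (2.3e-06) and -0.83. Of the other urea cycle enzymes in the list, Cps1 fell after both metals. Arg1 and Asl were higher after Cr, at 0.25 (limma, adjusted p = 0.0015) and 0.54 (3.4e-05), and had -0.30 (0.0083) and -0.17 (0.26) after Cd. Dpyd, which degrades pyrimidines, was lower after Cr by -1.77 (7.4e-07) and had -0.27 after Cd. The genes called higher in the list after both metals were Hp and Fgb, which encode the acute phase proteins haptoglobin and fibrinogen beta. FOXA targets, a list that also holds Hnf4a and Onecut1, had 1 higher and 3 lower of 13 after Cd and 1 higher and 2 lower after Cr, with medians of -0.02 and -0.03. Igfbp1, which binds insulin-like growth factors, was higher after Cd by 1.84 (0.0025) and Afp lower by -1.0 (0.00064). All 7 Kupffer markers were lower on that day, and their part in these counts was not tested.

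**Figure D4:**
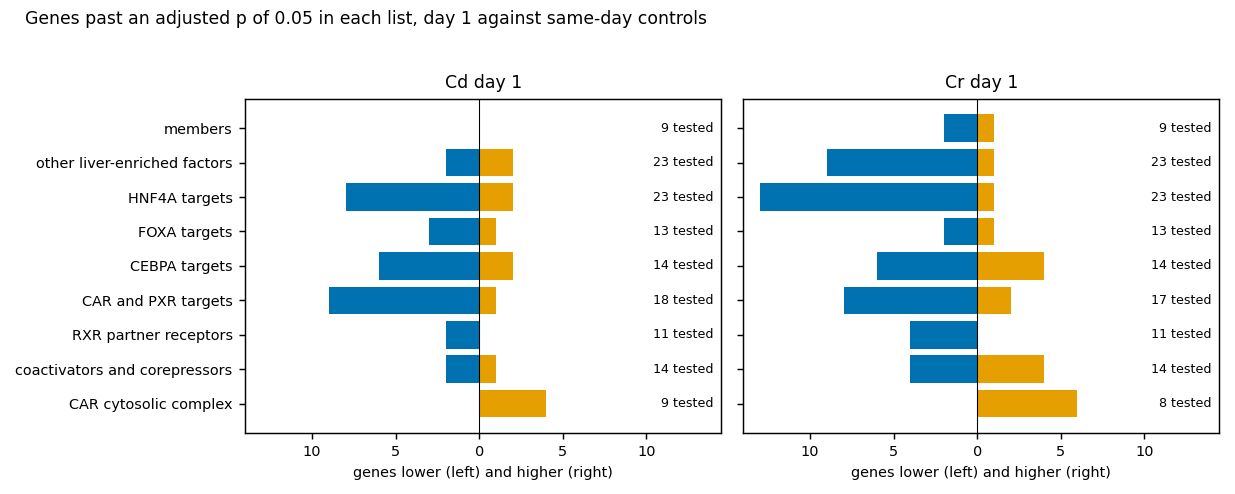
Number of genes past an adjusted p of 0.05 in each list on day 1 against same-day controls (x axis, lower to the left and higher to the right), with the number tested beside each bar, for Cd and Cr. HNF4A targets had 8 of 23 lower after Cd and 13 of 23 after Cr, whereas Hnf4a itself was not called.

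Targets of CAR and PXR, the detoxification genes, had 1 higher and 9 lower of 18 after Cd (median -0.47) and 2 higher and 8 lower of 17 after Cr (median -0.28). Slco1a4, an organic anion importer, was lower after both metals, at -1.46 (limma, adjusted p = 6.2e-06) and -0.82 (0.00022), and so was Thrsp, a lipogenic gene, at -1.34 (0.0097) and -1.14 (0.0017). Aldh1a1 was lower after Cd at -1.71 (0.0038) and had 0.79 after Cr (0.15), and Abcc3, a basolateral exporter, was higher after Cr at 1.26 (0.0013) and had 0.12 after Cd. The genes for proteins that hold CAR in the cytosol or otherwise act on it had 4 higher and 0 lower of 9 after Cd. Among the 4 was Gadd45b, at 1.01 (0.00024), which averaged 5.19 over all arrays, below the 5.38 at which the Cd filter ended. It was not tested after Cr, and its call is not independent of the filter. After Cr, 6 were higher and 0 lower of 8. Among these Hsp90ab1, a chaperone, was higher after Cr at 0.84 (1.5e-06), with -0.25 after Cd (0.071), and Rack1 was higher after both at 0.24 (0.0063) and 0.63 (2.8e-07).

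Nuclear receptors that pair with RXRA had 0 higher and 2 lower of 11 after Cd and 0 higher and 4 lower after Cr. Nr1h4, the bile acid receptor FXR, was lower after both at -0.40 (limma, adjusted p = 0.0023) and -0.46 (0.0026), as was Ppard at -0.38 (0.0055) and -0.46 (0.00031). Coactivators and corepressors had 1 higher and 2 lower of 14 after Cd and 4 of each after Cr. Among 23 other liver-enriched factors, 2 were higher and 2 lower after Cd and 1 higher and 9 lower after Cr. Cebpd, an acute phase relative of Cebpa, was higher after both, at 2.31 (3.3e-08) and 0.93 (1.6e-05), and Hlf and Nr0b2, the repressor SHP, were lower after Cr at -0.86 (0.00024) and -0.88 (0.014). On days 3 and 7 the only calls in these lists were Hhex, higher on Cd day 3 and lower on Cr day 7, Ppard, lower on Cd day 3 (-0.40, 0.027), and Nr0b2, higher on Cr day 7 (1.65, 0.0077).

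Genes most like each member over the 59 arrays were found by Pearson r among 9251 genes, as a description, since all arrays share 1 normalization and the groups differ. Foxa2 was most like Hhex, a homeobox factor of the liver, and Cish, a suppressor induced by cytokines and growth hormone, with r = 0.882 for both (Spearman rho 0.873 and 0.885). Within groups r was 0.832 and 0.838, and over the 30 control arrays 0.856 and 0.920. Without the 2 arrays farthest from the median it was 0.873 and 0.875. Onecut1 was most like LOC102549203, its immediate neighbour on chromosome 8 in the RefSeq order, then Birc2, an inhibitor of apoptosis, and Socs2, a second suppressor of the family of Cish, with r = 0.882, 0.857 and 0.845 (rho 0.855, 0.830 and 0.772). Their r within groups was 0.851, 0.853 and 0.860, and without the 2 farthest arrays 0.859, 0.847 and 0.807. The factors Foxa2 and Onecut1 had r = 0.588 with each other (rho 0.671, 0.565 within groups), and Foxa2 ran against Hnf4a at -0.544 (-0.652 within groups).

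Cish differed between control days on the same side as Foxa2. In Cd controls Cish read 7.26, 7.39, 7.84, 7.52 and 7.51 on day 1 and 5.51, 5.24, 4.34, 5.07 and 5.34 on day 3, so that the 2 groups did not overlap. Day 1 exceeded day 3 by 2.4 ± 0.49 (limma, adjusted p = 0.014). Hhex was higher in Cd controls on day 1 than on day 3 by 1.26 (0.0033).

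In exposed livers both genes lay on the same side of controls as Foxa2. On Cd day 3 Cish was higher by 2.18 ± 0.49 (limma, adjusted p = 0.022) and Hhex by 1.07 ± 0.22 (0.015). On Cr day 7 they had -2.21 ± 0.46 (0.028) and -1.01 ± 0.18 (0.0077), with all 5 exposed Cish values, 5.4, 4.79, 5.16, 5.26 and 4.87, below the controls at 6.88, 7.21, 7.22, 7.56 and 7.67. Cish and Hhex were named for their likeness to Foxa2 over these arrays, so their sides are no independent support for it. On day 7 the metals differed by 3.69 ± 0.69 in Cish (Cd effect minus Cr effect, 0.0033).

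Socs2 was low in the livers in which Onecut1 was low. It was named for its likeness to Onecut1 over these same arrays, so this is no independent support for the Onecut1 values. In Cd controls of day 7 Socs2 read 4.63, 5.54, 8.34, 7.15 and 7.30, with replicates 1 and 2 the lowest and replicate 3 the highest, as for Onecut1. In Cd exposed livers of that day it read 7.89, 8.005, 7.67, 7.84 and 4.85, and replicate 5 was again the low one. Socs2 was not called in any comparison. The promoter window of Cish, at chr8:116850719-116850968 on the plus strand of GRCr8, is shown because it holds 4 matches to TTCNNNGAA, the letters bound by STAT5, at -241, -230, -136 and -119, besides TGTTTCC at -209 and a GGGCGG match. Of all windows 7.67% hold TTCNNNGAA at least once. None of the 8 windows of the 7 members with an entry does, which at that share tells nothing about the members. A link of these letters to the expression values was not tested.
Cish: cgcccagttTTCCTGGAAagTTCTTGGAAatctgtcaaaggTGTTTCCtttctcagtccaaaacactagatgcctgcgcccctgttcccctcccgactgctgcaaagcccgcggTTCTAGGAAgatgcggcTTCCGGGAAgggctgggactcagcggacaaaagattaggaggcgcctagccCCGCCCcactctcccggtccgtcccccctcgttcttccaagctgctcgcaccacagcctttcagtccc

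**Figure D5:**
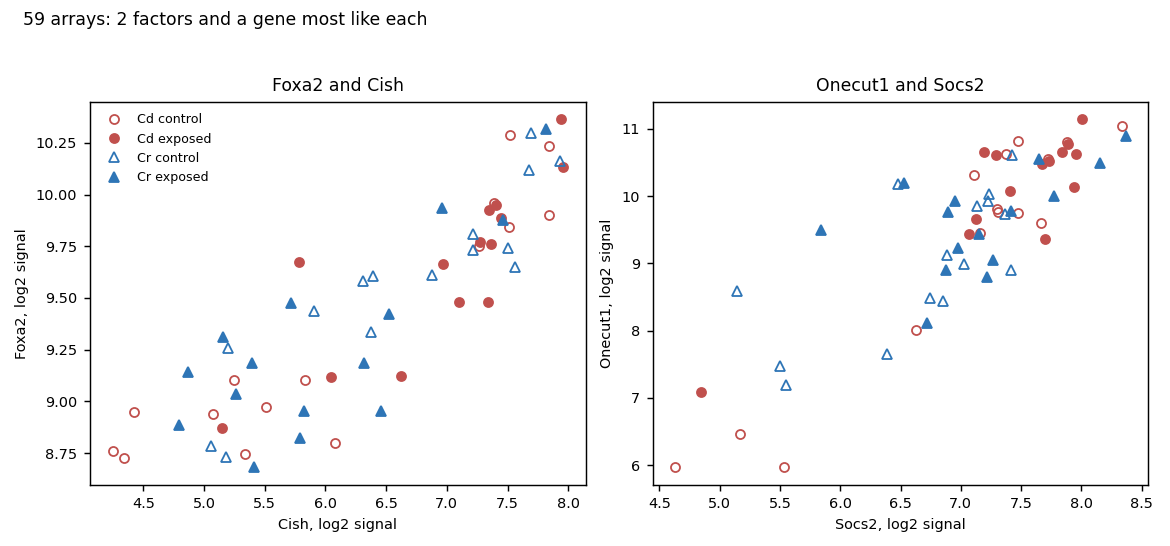
Log2 signal of Foxa2 against Cish and of Onecut1 against Socs2 on 59 arrays, with circles for the Cd and triangles for the Cr series, open for controls and filled for exposed livers. The lowest Onecut1 values, 5.97, 5.97 and 6.46 in controls and 7.09 in an exposed liver, are arrays with low Socs2, and control and exposed livers lie along the same trend in both panels. Cish and Socs2 were picked for their likeness over these same arrays.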

How the data were processed

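RNA from whole rat liver was hybridised to 59 arrays. The authors deposited log2 signals obtained with robust multi-array averaging (RMA) in Partek, per the labels and methods, and were used as deposited. Array medians were 5.38 to 5.46, no pair of arrays was identical, and 0 other value columns were present. Groups and replicate numbers came from the sample titles, which call the replicates biological. Precision is limited by the number of arrays per group.

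Of 31042 probe sets that are not array controls, the 50% with the highest lowest-in-group signal (15521 per metal, 15866 for either) were tested. Each metal was fitted over its 6 groups with limma 3.58.1 in R 4.3.3, each exposed group was compared with same-day controls, and metals and days were contrasted, the metals in 1 fit of all groups. Tests were two-sided, with Benjamini-Hochberg adjustment over all probe sets tested and a call at 0.05 or less. A log2 fold change is exposed minus control. When 50 simulated probe sets were changed by each size, limma recovered 94% to 100% at a log2 change of 1 and 64% to 74% at 0.5, with 3 to 12 false calls. At 0.3 it recovered 24% to 44%. The changed probe sets were drawn from all those tested, with independent noise. These rates therefore need not hold for members of wide spread, such as Onecut1, Foxa2, Nr1i3 and Foxa3.

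Named genes were every member, up to 4 called genes per list with the largest change on day 1, and the 3 genes most like each member by Pearson r; single genes named beyond these were chosen after their values were seen. The members and lists were chosen with earlier results of these data known. Comparisons between control days were added after the values were seen. Alternatives were pooled controls, 2 other filters, no variance moderation, other sets of arrays in the fit, quantile normalization, a replicate block, other probe sets and each array left out. Tables were read with Python 3.11.15, numpy 2.4.6 and pandas 2.3.3 and drawn with matplotlib 3.10.9. Gene symbols come from the platform annotation, and promoters and gene order from RefSeq (GRCr8).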

Additional observations from a re-analysis of the deposited data

Results flagged for a closer look

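In 6 of 108 pairs of a member and a group, 1 array stood apart from the other arrays of its group by Dixon's criterion, and chance gives about 1 in 20 groups. Foxa1 was lowest in Cd control day 7 replicate 2, at 7.02 against 7.31 to 7.39 in the rest. Foxa2 was highest in Cd control day 7 replicate 3, at 10.23 against 8.76 to 9.11. Foxa3 was highest in Cr exposed day 7 replicate 4, at 8.19 against 7.56 to 7.74. Rxra was lowest in Cd control day 1 replicate 3, at 5.92 against 6.37 to 6.42. Onecut1 was lowest in Cd exposed day 3 replicate 1, at 10.13 against 10.52 to 10.66, and in Cd exposed day 7 replicate 5, at 7.09 against 10.47 to 11.14.

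Effects that differed between metals or days by a test of the difference (limma) were Foxa3 between Cd and Cr on day 1 (-1.46) and Foxa2 between them on day 7 (1.32). Between days they were Foxa2 after Cd, day 1 against day 3 (-1.45) and against day 7 (-1.25), and after Cr, day 1 against day 3, Foxa2 (-1.07), Foxa3 (0.86) and Cebpa (-0.84).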

How the results depend on the processing

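Of the member values, 3300 kept their side of the threshold under an alternative, 39 came to pass it, 42 no longer passed it and 0 called values changed sign; the cause was not tested. Members called on Cd day 1 (0) became 2 with pooled controls, 1 with a mean signal of 6 or more, 1 after quantile normalization, 1 with both metals in 1 fit, 2 with arrays of the day only and 0 to 3 with 1 array left out, 3 without Cd exposed day 1 replicate 5. Members on Cd day 3 (0) became 1 with both metals in 1 fit and 1 with the day only, and on Cr day 7 (0) 1 with the day only. With 1 array left out the members called on Cr day 1 (3) were 1 to 3.

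Over all probe sets, Cd day 3 (221) gave 405 with pooled controls, 119 without moderation and 23 to 409 with 1 array left out. Cd day 7 (4) gave 2 with pooled controls, 0 without moderation, with both metals or with the day only, and 0 to 18. Cr day 3 (0) gave 77 with pooled controls, 1 without a filter, after quantile normalization or with both metals, 8 with the day only, and 0 to 7. Cr day 7 (39) gave 0 with pooled controls, 25 with a mean signal of 6 or more, 21 without moderation, 88 with both metals, 77 with the day only, and 14 to 108. The difference between metals gave 62 with pooled controls, 4 without a filter or without moderation and 4 to 50 on day 3 (9), and 0 with pooled controls and 36 to 203 on day 7 (115). With pooled controls day 1 differed from day 3 and day 7 at 3078 and 3372 probe sets after Cd (1801 and 1839) and at 6345 and 6933 after Cr (3972 and 3879).

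The main fits did not use replicate numbers as pairs, although same-numbered livers were somewhat more alike. Their deviations correlated at 0.127 on average and those of different numbers at -0.03, and 17 of 29 pairs correlated best within their number. What the numbers share is not given by the labels. With the replicate block 2 members were called on Cd day 1 (Foxa3 and Nr1i2). Over all probe sets the counts with the block were 2 on Cd day 7, 2 on Cr day 3 and 62 on Cr day 7.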

Other observations

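The remaining members had looser likeness to other genes over the 59 arrays, given as a description. Foxa3 was most like Prr14l, Scaf8 and Ccdc51 (Pearson r = 0.742, 0.722 and 0.715), and within groups these were 0.455, 0.438 and 0.308. Prr14l was higher after Cr on day 1 by 0.48 (limma, adjusted p = 7.7e-07). Nr1i3 was most like Mxi1, a repressor of the MYC network, and Akr7a2, an aldo-keto reductase, both at 0.723, then Egf, which encodes epidermal growth factor, at 0.712. Within groups these were 0.448, 0.589 and 0.588. Cebpa was most like Alas1, the first enzyme of heme synthesis, at 0.61, then Mid1ip1 at 0.577 and Gdf15, a stress cytokine, at 0.533. Hnf4a was most like Kiaa1671 at 0.618, then Fhip2a at 0.592 and Scarb1, the HDL receptor, at 0.564. Nr1i2 was most like Abtb1 at 0.644, then Creb3l3, a liver factor of the fasting response, at 0.607. Rxra was most like Sec22a at 0.722. Foxa1 and Onecut1 had r = 0.524 with each other, and Foxa2 and Foxa3 ran against each other at -0.424, or -0.511 within groups.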
